A study of Mus musculus with 9 samples.

Results

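The 10 genes examined encode the transcriptional coactivators YAP (Yap1) and TAZ (Wwtr1), the DNA-binding factors they act through (Tead1, Tead2, Tead3 and Tead4), the TEAD corepressor Vgll4 and the angiomotins (Amot, Amotl1 and Amotl2). They were taken by gene symbol, whatever their values, from the 54453 genes of an mRNA sequencing table, and all 10 were among the 16169 genes with enough counts to test. The series compared 5 pancreatic tumors labelled Scrib null (genotype KPF/+CSF/F, tumors 7, 14, 15, 18 and 23) with 4 labelled Scrib WT (KPF/+C, tumors 2, 3, 6 and 9). Both groups belong to the KPC strain and carry the alleles written as KPF/+C, while SF/F stands in the null genotype only. KPC mice are in general use as a model of pancreatic ductal adenocarcinoma. The labels do not spell out the alleles, the driver of Cre or the age of the mice, and since they do not tie each tumor to its own mouse, the p-values describe variation among these samples. Whole tumors were sequenced, so the values include RNA of stromal and immune cells, in which the genotype of Scrib need not be that of the tumor cells.

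YAP and TAZ have no DNA-binding domain of their own and switch on genes by binding TEAD factors in the nucleus. The Hippo kinase cascade, ending in the LATS kinases, phosphorylates them, which keeps them in the cytoplasm or sends them to degradation. Angiomotins are scaffold proteins of cell junctions and the actin cytoskeleton that bind YAP and TAZ, hold them outside the nucleus and can activate LATS, and Vgll4 competes with YAP and TAZ for TEAD. Scribble, the product of Scrib, is a polarity scaffold of the basolateral membrane, and in human breast cells its mislocalisation has been linked to loss of Hippo control over TAZ. Most of this control acts on the proteins, which mRNA levels do not measure.

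TEAD factors bind DNA at the core motif GGAATG, which reads CATTCC on the opposite strand. Of the 10 genes, 8 had a promoter window in the RefSeq table (GRCm38.p6), which spans 250 bases before to 50 bases after a transcription start. Tead1 and Tead4 had no entry. At least 1 window held the motif on either strand for 5 of the 8, namely Yap1, Wwtr1, Tead3, Vgll4 and Amotl2, which is 62.5%. Of all 26994 genes with a window, 4475 (16.58%) held it, and of all 32817 windows of 300 bases, 4811 (14.66%) did. Among 15 known YAP and TAZ target genes with a window, 7 (46.67%) held it. No match was found in the windows of Tead2, Amot and Amotl1. A match is a run of letters and not a measured binding site, and no match says only that these letters are not in the window. A stretch with a match is shown for each of the 5 genes because TEAD factors are the DNA-binding partners of this gene group. Each runs 5′ to 3′ on the strand of its gene, with the motif or its reverse complement in capitals.
Yap1 (GRCm38.p6 chr9:8004702-8004767, minus strand): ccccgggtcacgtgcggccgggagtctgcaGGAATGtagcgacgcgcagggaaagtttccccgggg
Wwtr1 (GRCm38.p6 chr3:57576011-57576076, minus strand): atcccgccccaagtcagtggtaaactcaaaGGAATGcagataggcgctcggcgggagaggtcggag
Tead3 (GRCm38.p6 chr17:28350679-28350744, minus strand): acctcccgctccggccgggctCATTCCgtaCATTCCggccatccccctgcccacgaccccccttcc
Vgll4 (GRCm38.p6 chr6:114969250-114969315, minus strand): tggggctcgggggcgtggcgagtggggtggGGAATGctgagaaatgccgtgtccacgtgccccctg
Amotl2 (GRCm38.p6 chr9:102717709-102717774, plus strand): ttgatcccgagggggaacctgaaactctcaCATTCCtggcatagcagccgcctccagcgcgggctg

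The matches shown began 141 bases before the annotated start in Yap1, 82 in Vgll4 and 65 in Amotl2. In Wwtr1, which had 2 windows, the same match lay 136 and 170 bases before the 2 starts. In Tead3 a pair of reverse-strand matches lay 9 bases apart, at 123 and 114 bases before the start. The Tead3 windows held 2 further matches that are not shown, GGAATG at 182 bases before another start and at 3 bases after the start used for the pair.

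Every one of the 10 genes had a higher fitted level in the null tumors than in the WT tumors, and none passed the test of the difference. The median log2 fold change (null over WT) of the 10 was 0.47, against -0.03 over all 16169 genes tested, of which 7724 (47.8%) had a positive value. By edgeR's quasi-likelihood test with Benjamini-Hochberg adjustment over all genes, 0 of the 10 had an adjusted p under 0.05, with adjusted p between 0.208 and 0.665. Over all genes tested, 2 did so (0.0124%). At an unadjusted p under 0.05, 2 of the 10 counted, Amot and Amotl1, both higher in null tumors, against 1236 higher genes (7.64%) in the table. DESeq2, which called 212 higher and 413 lower genes in the whole table, and limma-voom, which called 1 and 1, also gave 0 of the 10 with an adjusted p under 0.05. The groups did not overlap for 1 of the 10, Amot, against 553 genes (3.42%) with every null tumor above every WT tumor and 564 (3.49%) with every null tumor below, 6.91% together. Since RNA came from bulk tissue, more cells of a type and more RNA per cell cannot be told apart in any of these values.

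**Figure D1:**
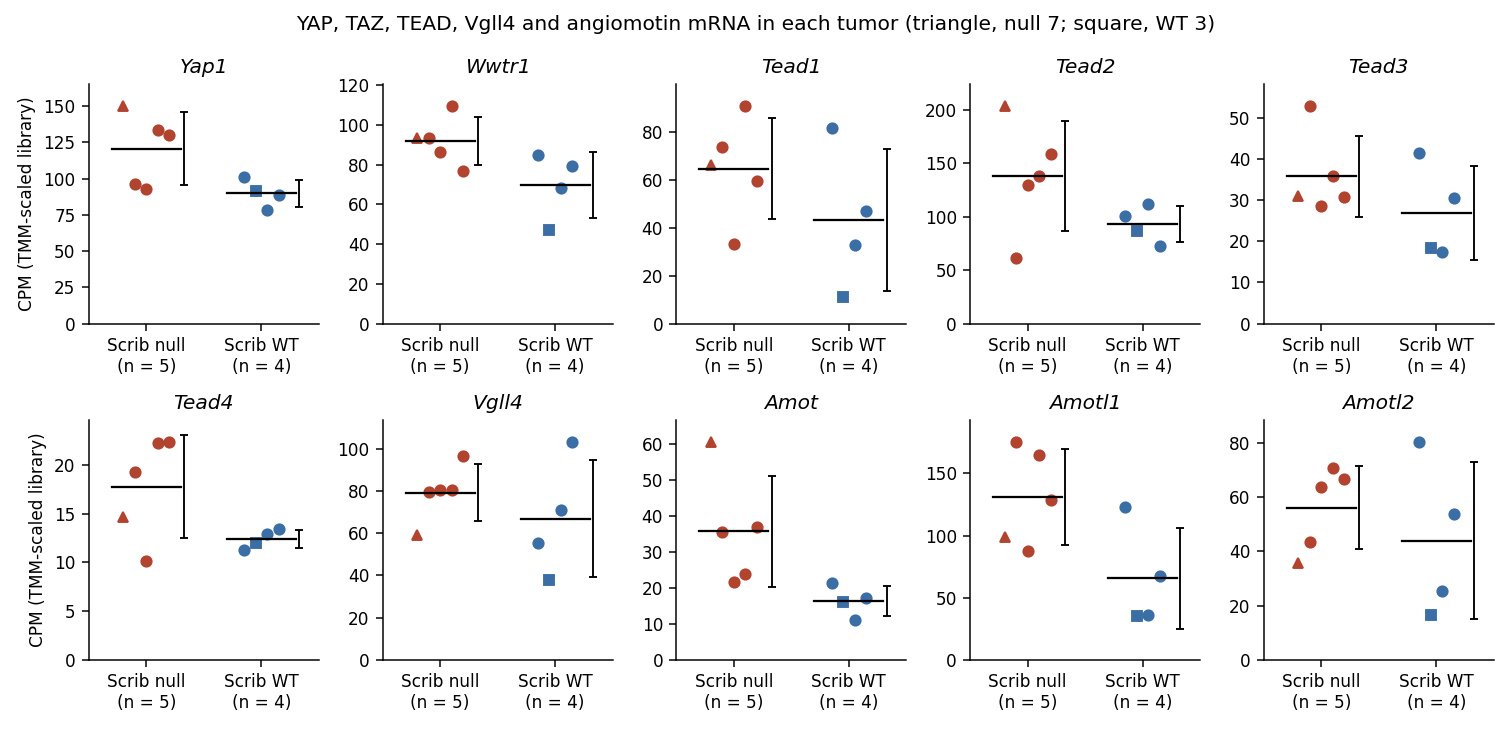
Level of each of the 10 genes in every tumor, in CPM (estimated counts scaled to library size), with Scrib null tumors left of Scrib WT tumors. The points are tumors and the bars are group means with the SD, and the Amot panel is the one in which the lowest null tumor, at 21.5 CPM, lies above the highest WT tumor, at 21.3 CPM.

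Library totals lay between 10145830 and 27596832 estimated counts, and the null tumors (23.9 ± 3.83 M, in mega-counts, SD, n = 5) and WT tumors (18.2 ± 7.49 M, SD, n = 4) did not pass the exact permutation test for depth (p = 0.222). The 10 genes averaged 343 to 2653 counts per tumor, and biological variation between tumors, not counting error, set their precision (median biological coefficient of variation 0.349 for the 10 genes and 0.405 for all genes). Scrib mRNA, which checks the labels, averaged 60.3 ± 24.6 CPM in null tumors (SD, n = 5) and 70.5 ± 21.4 CPM in WT tumors (SD, n = 4), with the highest level, 102 CPM, in a tumor labelled null (tumor 7). The gene total thus did not set the groups apart (log2 fold change -0.23, edgeR adjusted p = 0.712, from -0.70 to -0.095 over 19 alternatives), and single exons of Scrib were not analysed here. WT 3 and null 7 stood farthest from the other tumors on the leading pair of principal components (29.9% and 19.6% of variance, 500 most variable genes). The 100 genes with the most counts took 32.5% of the total in WT 3 and 25.8% in WT 6, against 18.8% to 22.9% in the other tumors. What this has to do with the levels of the 10 genes was not tested. By Xist and Y-linked genes 6 tumors were female, and WT 3, null 7 and null 18 were male.

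Yap1 (ENSMUSG00000053110, chr9:7931999-8004596, minus strand, GRCm38) averaged 120.5 ± 25.1 CPM in null tumors (SD, n = 5) and 90.0 ± 9.38 CPM in WT tumors (SD, n = 4). In null tumors 7, 14, 15, 18 and 23 it had 150.1, 96.0, 92.6, 134 and 130.3 CPM, and in WT tumors 2, 3, 6 and 9 it had 101, 91.8, 78.4 and 88.7 CPM. Null tumors 7, 18 and 23 lay above every WT tumor, while null tumors 14 and 15 lay inside the WT range. The log2 fold change was 0.42 (SE 0.20, 95% confidence interval -0.03 to 0.87), with an edgeR adjusted p of 0.304. The exact two-sided permutation test on log2 CPM over the 126 splits of the tumors, whose smallest possible p is 0.00794, gave 0.079. Yap1 shares 116 exonic bases with a transcript on the opposite strand, Gm20416, and it is not known whether the counting used strand.

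Wwtr1 (ENSMUSG00000027803, chr3:57455649-57575910, minus strand) averaged 91.9 ± 12.0 CPM in null tumors (SD, n = 5) and 69.9 ± 16.7 CPM in WT tumors (SD, n = 4). Its levels were 93.4, 93.4, 86.2, 109.6 and 76.8 CPM in null tumors 7, 14, 15, 18 and 23, and 85.1, 47.2, 68.1 and 79.2 CPM in WT tumors 2, 3, 6 and 9. Null tumor 23 alone among the null tumors fell inside the WT range, and WT 3 was the lowest of all 9. The fitted log2 fold change was 0.39 (SE 0.21, 95% confidence interval -0.07 to 0.86, edgeR adjusted p = 0.339), with an exact permutation p of 0.048. In the exact test the p, which was not adjusted, was under 0.05 for 3 of the 10 genes, Wwtr1, Amot and Amotl1. The share of all genes with such a p was not computed. Without WT 3 and null 7 the exact p was under 0.05 for none of them. Fewer splits are then possible, so the smallest possible p is larger. For Wwtr1 the exact p was then 0.143 and the log2 fold change 0.28.

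Per kilobase of merged exons, Wwtr1 had 19.2 ± 2.51 CPM per kb in null tumors (SD, n = 5) and 14.6 ± 3.50 in WT tumors (SD, n = 4), and Yap1 had 13.0 ± 2.71 in null tumors and 9.72 ± 1.01 in WT tumors. Yap1 thus made up 40.2 ± 5.52% of the coactivator mRNA in null tumors (SD, n = 5) and 40.5 ± 6.42% in WT tumors (SD, n = 4), a difference of -0.31 percentage points (exact permutation p = 0.960). This difference was smaller than the SD within either group, whereas the order of the pair rests on the length used. With the length of the longest transcript, Yap1 made up 53.5% in null tumors and 53.8% in WT tumors. Wwtr1 was the higher of the pair in 8 of 9 tumors with merged exons and in 3 of 9 with the longest transcript.

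**Figure D2:**
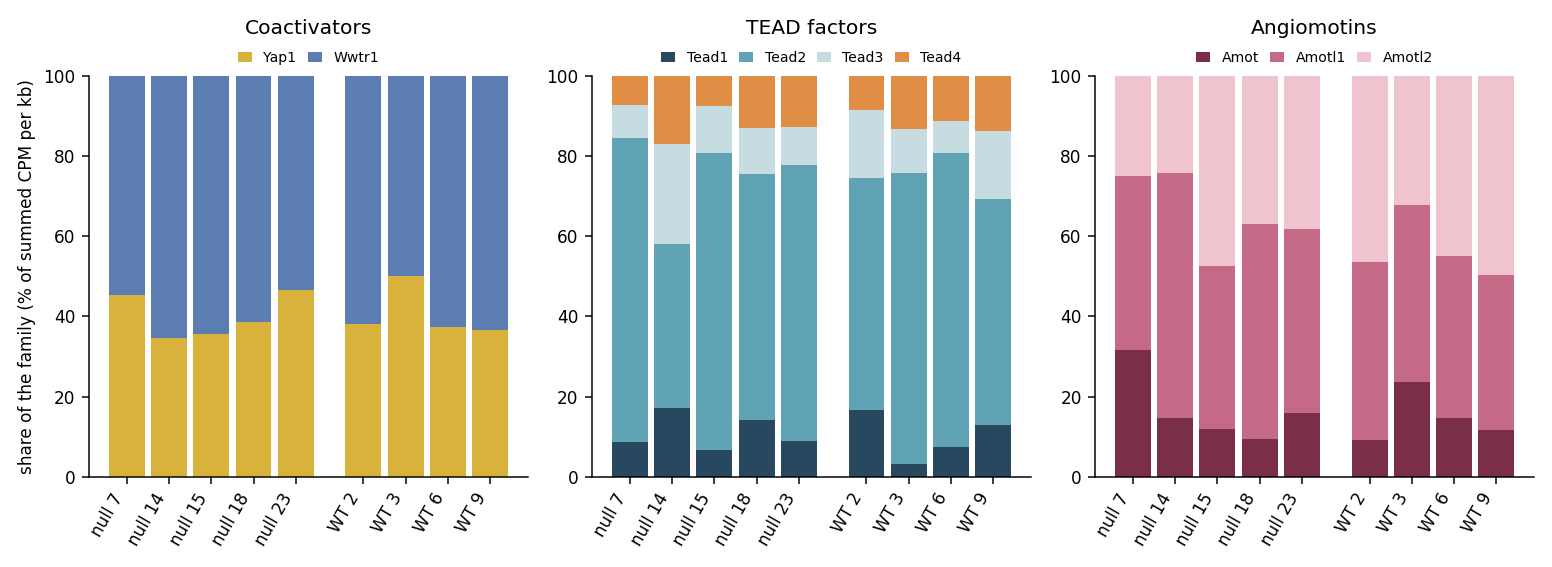
Share of each gene in the summed length-scaled level (CPM per kb of merged exons) of its family in every tumor, in percent, for the coactivators, the TEAD factors and the angiomotins, with null tumors left of WT tumors. Tead2 takes the largest TEAD share in all 9 tumors, and WT 3 is the tumor in which Yap1 reaches 50.1% of the coactivator level.

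The TEAD factors were led by Tead2 (ENSMUSG00000030796, chr7:45215753-45233644, plus strand), a TEAD best known from embryonic tissues and neural progenitors. Tead2 had 204, 61.8, 130.0, 138 and 159 CPM in null tumors 7, 14, 15, 18 and 23, and 100.4, 86.9, 112 and 73.0 CPM in WT tumors 2, 3, 6 and 9. All null tumors but tumor 14 lay above the WT range, and tumor 14 lay below it. This gave a log2 fold change of 0.57 (SE 0.31, 95% confidence interval -0.11 to 1.25, edgeR adjusted p = 0.341, exact permutation p = 0.190). Per kb, Tead2 was the highest TEAD in 9 of 9 tumors with either length, and made up 64.1 ± 14.2% of TEAD mRNA in null tumors (SD, n = 5) and 65.0 ± 9.04% in WT tumors (SD, n = 4). Tead2 shares 13 exonic bases with Cd37, a leukocyte gene on the opposite strand.

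Tead1 (ENSMUSG00000055320, chr7:112679318-112906807, plus strand), a widely expressed TEAD needed for heart development, varied more between tumors than any other of the 10 by highest over lowest tumor, at 8.18-fold. It had 66.2, 73.4, 33.3, 90.7 and 59.3 CPM in null tumors 7, 14, 15, 18 and 23, and 81.5, 11.1, 32.8 and 47.0 CPM in WT tumors 2, 3, 6 and 9. The groups overlapped broadly, with WT 2 above 4 of the 5 null tumors. Its log2 fold change was 0.58 (SE 0.48, edgeR adjusted p = 0.520), and leaving out single tumors placed it between 0.31 without WT 3 and 1.09 without WT 2.

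Tead4 (ENSMUSG00000030353, chr6:128224288-128300823, minus strand), the TEAD that specifies trophectoderm in the mouse embryo, had 14.7, 19.3, 10.1, 22.3 and 22.3 CPM in null tumors 7, 14, 15, 18 and 23, and 11.3, 12.0, 12.9 and 13.4 CPM in WT tumors 2, 3, 6 and 9. As for Tead2, 4 of the 5 null tumors lay above the WT range and 1 lay below it, here tumor 15. Its log2 fold change was 0.52 (SE 0.27, edgeR adjusted p = 0.337). The WT tumors were the tightest for this gene, with a mean of 12.4 ± 0.944 CPM (SD, n = 4), against 17.7 ± 5.28 CPM in null tumors (SD, n = 5).

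Tead3 (ENSMUSG00000002249, chr17:28331671-28350817, minus strand), a TEAD with high levels in placenta, ranged from 28.5 to 52.9 CPM in null tumors (median 31.0) and from 17.3 to 41.4 CPM in WT tumors (median 24.5). Null tumor 14 alone lay above the WT range. The log2 fold change was 0.41 (SE 0.31, edgeR adjusted p = 0.483), and it was 0.23 without null 14 and 0.70 without WT 2. Tead1, Tead3 and Tead4 each took between 10.1% and 13.2% of TEAD mRNA in the group means, and none of their shares passed the test between the groups (exact permutation p = 0.762, 0.984 and 0.944, adjusted over 8 family shares to 0.984 for each).

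Vgll4 (ENSMUSG00000030315, chr6:114860628-114969994, minus strand), which binds TEAD through its TDU domains and blocks YAP, had the smallest difference of the 10 with all tumors and no covariate. It ranged from 59.1 to 96.7 CPM in null tumors (median 80.3) and from 37.9 to 103 CPM in WT tumors (median 63.2), so that all 5 null tumors lay inside the WT range. The log2 fold change was 0.24 (SE 0.28, 95% confidence interval -0.37 to 0.86, edgeR adjusted p = 0.650). It was 0.088 without WT 3 and 0.53 without WT 9, and in the fit without WT 9 it was larger than that of Yap1.

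Among the angiomotins, Amot and Amotl1 had the largest differences of the 10 genes, at about the size of a doubling, and Amotl2 had a small one. Amot (ENSMUSG00000041688, chrX:145446425-145505181, minus strand), the founding member, was identified as a binding protein of angiostatin in endothelial cells. It had 60.4, 35.4, 21.5, 23.9 and 37.0 CPM in null tumors 7, 14, 15, 18 and 23, and 21.3, 16.1, 11.0 and 17.1 CPM in WT tumors 2, 3, 6 and 9. Every null tumor was above every WT tumor, though null 15 exceeded WT 2 by little, and null 7 was far above the rest. The fold was 2.18 (95% confidence interval 1.31 to 3.63), or 1.12 on the log2 scale with an SE of 0.33. The edgeR p was 0.0066 before and 0.208 after adjustment, and the exact permutation p was 0.024. The log2 fold change lay between 0.86 without null 7 and 1.28 without WT 2, and was 0.88 without WT 3 and null 7, where the exact permutation p was 0.057. DESeq2 gave 1.12 with an adjusted p of 0.051.

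Since Amot lies on the X chromosome, its levels were also read within each sex. In female tumors it ranged from 21.5 to 37.0 CPM in null tumors (n = 3) and from 11.0 to 21.3 CPM in WT tumors (n = 3). In males it was 23.9 and 60.4 CPM in the 2 null tumors and 16.1 CPM in the 1 WT tumor. The groups did not overlap within either sex. This follows from every null tumor being above every WT tumor, so it is no separate check on sex. In males the only WT tumor was WT 3, and every gene examined was higher in the null males than in it. In females the groups overlapped for every gene examined except Amot. With sex as a covariate the log2 fold change of Amot was 1.07 (edgeR adjusted p = 0.250).

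Amotl1 (ENSMUSG00000013076, chr9:14541966-14645056, minus strand), a tight junction protein that also holds YAP in the cytoplasm, had 99.1, 175, 87.2, 165 and 128 CPM in null tumors 7, 14, 15, 18 and 23, and 123, 35.7, 36.3 and 67.2 CPM in WT tumors 2, 3, 6 and 9. WT 2 reached into the null range, and the other WT tumors lay below all null tumors. The fold was 2.00 (95% confidence interval 1.09 to 3.66), or 1.0 on the log2 scale with an SE of 0.39. The edgeR p was 0.028 before and 0.246 after adjustment, and the exact permutation p was 0.040. Leaving out single tumors placed the log2 fold change between 0.80 without WT 6 and 1.5 without WT 2. Without WT 3 and null 7 it was 0.93, with an exact permutation p of 0.114.

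Amotl2 (ENSMUSG00000032531, chr9:102716672-102733418, plus strand), an angiomotin that is itself a known YAP and TAZ target gene, had 35.8, 43.5, 63.9, 70.7 and 66.6 CPM in null tumors 7, 14, 15, 18 and 23, and 80.2, 16.4, 25.2 and 53.9 CPM in WT tumors 2, 3, 6 and 9. All null tumors lay inside the WT range, whose top and bottom were WT 2 and WT 3. The log2 fold change was 0.35 (SE 0.42, edgeR adjusted p = 0.665), and ranged from 0.12 without WT 3 to 0.82 without WT 2. Per kb, Amotl1 took 48.9 ± 8.35% of angiomotin mRNA in null tumors (SD, n = 5) and 41.8 ± 2.76% in WT tumors (SD, n = 4), and Amotl2 took 34.4 ± 9.78% in null tumors and 43.3 ± 7.56% in WT tumors. These shifts of 7.08 and -8.93 percentage points did not pass the test (exact permutation p = 0.175 and 0.190, adjusted p = 0.762 for both).

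Averaged over all 9 tumors and scaled to merged exon length, the order of the 10 genes was Tead2 at 24.7 CPM per kb, Wwtr1 at 17.2, Vgll4 at 13.7, Yap1 at 11.6, Amotl1 at 10.1, Amotl2 at 8.06, Tead3 at 4.74, Tead4 at 4.27, Tead1 at 4.06 and Amot at 3.22. Neighbours in this order were separated in 5 to 7 of the 9 tumors, so that no adjacent pair kept its order in every tumor. Amot, which had the largest log2 fold change in the main fit, had the lowest level per length on this scale. By the difference of mean log2 CPM, Amotl1 (1.14) was ahead of Amot (1.06). The order per kb can change with the length used, as for Yap1 and Wwtr1.

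**Figure D3:**
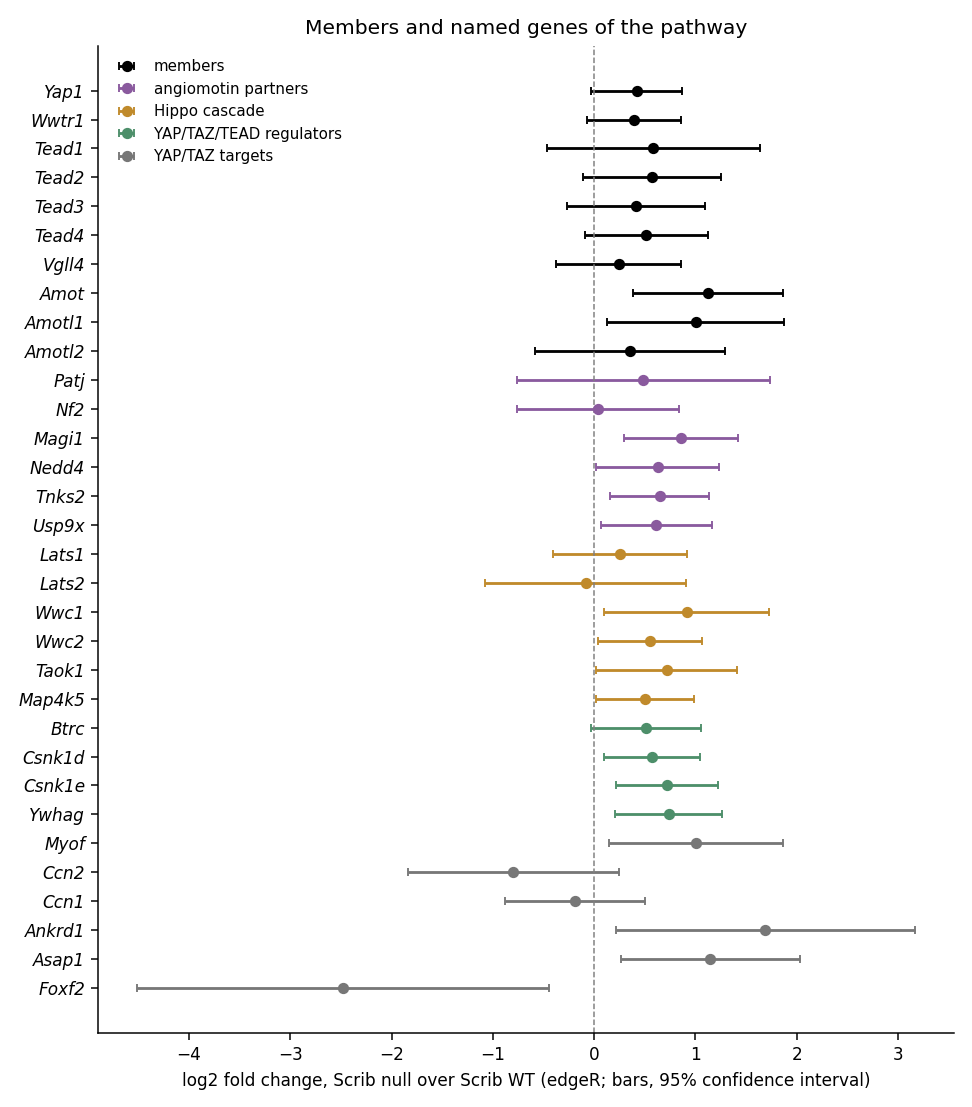
Fitted log2 fold change (null over WT) of the 10 genes and of the named genes of the surrounding pathway, with 95% confidence intervals from edgeR. All 10 members lie to the right of 0, and the intervals of Amot and Amotl1 alone among them exclude 0 before adjustment, with log2 fold changes of 1.12 and 1.0.

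Markers of non-epithelial cells were lower in null tumors beside these values. Their mean log2 CPM, averaged over 5 cell types, was 3.89 ± 0.85 in null tumors (SD, n = 5) and 4.89 ± 0.33 in WT tumors (SD, n = 4), with no overlap (exact permutation p = 0.024) and with null 7 lowest at 2.41. Fold changes were negative for 10 of 10 fibroblast, 10 of 10 endothelial, 7 of 8 pericyte and smooth muscle, 10 of 10 macrophage and 6 of 6 tested lymphoid markers, none with an edgeR adjusted p under 0.05 and 2, 2, 2, 8 and 2 of them at an unadjusted p under 0.05, against 1623 lower genes (10.0%) in the table. Summed levels were 376 to 4595 CPM in null tumors and 2245 to 9550 CPM in WT tumors for fibroblast markers, and 70.9 to 379 CPM in null tumors and 360 to 642 CPM in WT tumors for endothelial markers. They were 76.0 to 322 CPM in null tumors and 256 to 517 CPM in WT tumors for pericyte and smooth muscle markers, and 698 to 1206 CPM in null tumors and 1046 to 1996 CPM in WT tumors for macrophage markers. Lymphoid markers summed to 1.67 to 13.0 CPM in null tumors and 9.46 to 18.5 CPM in WT tumors, with Cd3d and Ms4a1 at 0 in some tumors. Acinar markers, kept apart from these 5 cell types, had a mean log2 CPM of 1.24 ± 2.63 in null tumors and 0.58 ± 2.81 in WT tumors (SD, exact permutation p = 0.746). They were highest in null 15, at 4.74, and WT 6, at 4.75, and 6 of the 8 markers were at 0 in some tumor. Their relation to the 10 genes was not tested. The epithelial list, led by keratins and Epcam, was present in all tumors at a mean log2 CPM of 8.81 ± 0.26 in null tumors and 8.50 ± 0.21 in WT tumors (SD, exact permutation p = 0.103), with summed levels of 7523 to 13943 CPM in null tumors and 8699 to 12483 CPM in WT tumors and 9 of 12 fold changes positive.

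The 10 genes did not move alike when cell makeup was put into the edgeR fit. With the non-epithelial level as a covariate, the log2 fold changes of Amot, Yap1 and Tead2 were 0.62, 0.21 and 0.19, while those of Amotl1, Amotl2 and Vgll4 were 1.4, 1.02 and 0.63. With the epithelial level as a covariate, Tead3 had 0.06, Amotl1 0.73, Amot 1.1 and Tead2 0.99. All 10 values remained above 0 in both fits, and 0 of the 10 had an adjusted p under 0.05. The non-epithelial level separates the groups by itself, so genotype and makeup cannot be told apart in the first of these fits.

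Across tumors, all 10 genes had a negative Pearson's r with the lymphoid markers, from -0.13 for Vgll4 to -0.86 for Yap1. These markers were low, summing to 1.67 to 13.0 CPM in null tumors and 9.46 to 18.5 CPM in WT tumors. The r was largest in size for Yap1, at -0.86 (exact permutation p = 0.0044, Spearman's rho -0.88, p = 0.0031), and Amot, at -0.85 (exact permutation p = 0.0032, Spearman's rho -0.83, p = 0.0083). Tead2 had r = -0.76 with endothelial markers (exact permutation p = 0.0076, Spearman's rho -0.87, p = 0.0045). None of the 60 relations between a gene and a marker list passed adjustment (0 of 60 with adjusted p under 0.05, 11 at an unadjusted p under 0.05), with a lowest adjusted p of 0.131. Without the 2 tumors farthest from the median of the marker level, r was -0.64 for Yap1, -0.90 for Amot and -0.55 for Tead2, and as deviations from the group means it was -0.74, -0.70 and -0.68. The negative r with lymphoid markers did not hold for all 10 genes within the groups. As deviations from the group means it was 0.19 for Vgll4, 0.011 for Amotl2 and -0.061 for Tead2, and further below 0 for the others. The share of all genes with a negative r was not computed. What part these markers have in the values of the 10 genes was not tested beyond the covariate fits.

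The levels of the 10 genes were mostly positively correlated from tumor to tumor. Of their 45 pairs, 44 had a positive Pearson's r over the 9 tumors, with a median of 0.52. The shares of all gene pairs that are positive or pass the test were not computed. After adjustment over the 45 pairs, 6 had an adjusted p under 0.05 by Pearson's r and 0 by Spearman's rho, whose lowest adjusted p was 0.051. Tead3 and Amotl1 had the highest r, 0.92 (exact permutation p = 0.00079, adjusted p = 0.027, Spearman's rho 0.88 with p = 0.0031). Wwtr1 and Tead1 had r = 0.91 (exact permutation p = 0.0024, adjusted p = 0.027, Spearman's rho 0.78 with p = 0.017). Yap1 and Amot had r = 0.82 (exact permutation p = 0.0060, adjusted p = 0.049, Spearman's rho 0.87 with p = 0.0045).

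The other pairs that passed were Tead1 with Amotl1 (r = 0.86, rho 0.87), Wwtr1 with Amotl1 (r = 0.83, rho 0.70) and Tead1 with Tead3 (r = 0.80, rho 0.92). Each r was also taken without the 2 tumors farthest from the median of the second gene named in the pair. It was then 0.72 for Tead3 with Amotl1, 0.55 for Wwtr1 with Tead1 and 0.55 for Yap1 with Amot. It was 0.75 for Tead1 with Amotl1, 0.57 for Wwtr1 with Amotl1 and 0.95 for Tead1 with Tead3. Taken as deviations from the group means, the 6 values were 0.93, 0.90, 0.66, 0.84, 0.70 and 0.74 in the same order, all above 0 within the groups as well. WT 3, the lowest of all 9 tumors for 5 of the 10 genes (Wwtr1, Tead1, Vgll4, Amotl1 and Amotl2), and WT 6 were the tumors left out for 4 of these 6 pairs. For Tead1 with Tead3 the tumors left out were WT 6 and null 14, so WT 3 stayed in and the 0.95 is no check on it. Over all 9 tumors Tead2 with Tead3 was the single negative pair, at r = -0.18. As deviations from the group means its r was -0.53, and several other pairs also fell below 0, while most stayed above. Those below 0 included Tead2 with Amotl1 (-0.32), Vgll4 with Amot (-0.28) and Yap1 with Vgll4 (-0.27).

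**Figure D4:**
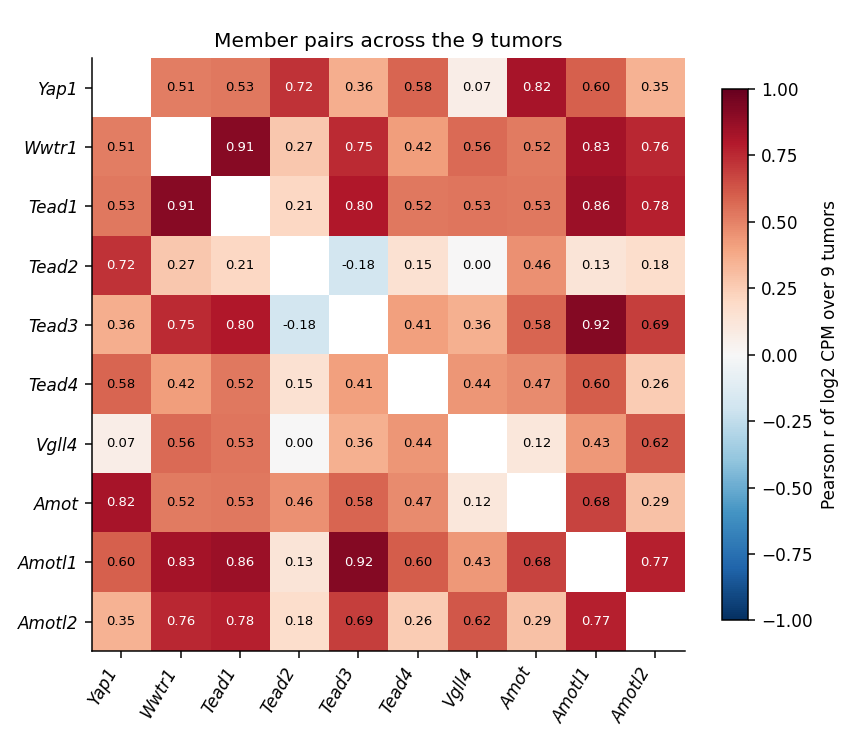
Pearson's r between the log2 CPM of every pair of the 10 genes over the 9 tumors. The cells of Wwtr1, Tead1, Tead3 and Amotl1 hold the highest values, up to 0.92, and the pair of Tead2 and Tead3 is the single one below 0, at -0.18.

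Among all 14010 named genes compared, those with the profile most like Yap1 over the 9 tumors were Eps8l2, an actin regulator of the EPS8 family, Zswim9 and Prpf40b, with Pearson's r of 0.98, 0.96 and 0.95. For Wwtr1 they were Sppl3, an intramembrane protease, and the small GTPases Rab22a and Rab35, each at 0.97. For Amot they were Rbm28, Pex6, a peroxisomal ATPase, and Zfp608, at 0.98, 0.96 and 0.96. These are the extremes of many genes over few tumors and carry no p.

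In the upstream Hippo cascade no gene passed the test. Of 22 genes, 18 had a positive and 4 a negative log2 fold change, against 47.8% positive over all genes. Their median was 0.20, and 0 had an edgeR adjusted p under 0.05. At an unadjusted p under 0.05, 4 of the 22 counted, all higher in null tumors. Of all genes, 17.7% did so in either direction and 7.64% as higher. The 4 genes are named here by their smallest p. These were Wwc1 and Wwc2, scaffolds of the KIBRA family that activate LATS, at log2 fold changes of 0.91 and 0.55, and the upstream kinases Taok1 and Map4k5, at 0.72 and 0.50 (adjusted p 0.250 to 0.275). Of the kinase genes that act directly on YAP and TAZ, Lats1 had 54.9 ± 13.4 CPM in null tumors (SD, n = 5) and 46.1 ± 17.5 CPM in WT tumors (SD, n = 4), and Lats2 had 25.7 ± 10.7 CPM in null tumors and 27.3 ± 14.2 CPM in WT tumors. Their log2 fold changes were 0.25 (95% confidence interval -0.41 to 0.91) and -0.08 (-1.07 to 0.91), and that of Nf2, which encodes the membrane scaffold merlin, was 0.04 (-0.76 to 0.84). The signs for Lats2 and Nf2 turned under some alternatives.

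Known partners of the angiomotins all had positive fold changes in the main fit, and none passed the test. All 14 listed, among them Patj, Mpdz and Pals1 of the apical Crumbs complex, ubiquitin ligases and tankyrases, had positive log2 fold changes, against 47.8% of all genes. Their median was 0.44, and 0 of 14 had an edgeR adjusted p under 0.05. Nf2, which is also on this list, had 0.04, and its sign turned in 7 of 19 alternatives. At an unadjusted p under 0.05, 4 of the 14 counted, all higher in null tumors, against 7.64% of all genes. Magi1, a junction scaffold that binds angiomotins, ranged from 80.6 to 165 CPM in null tumors and from 51.2 to 75.2 CPM in WT tumors (log2 fold change 0.86, SE 0.25, edgeR adjusted p = 0.208). Nedd4, a ubiquitin ligase of angiomotins, ranged from 779 to 1421 CPM in null tumors and from 433 to 758 CPM in WT tumors (log2 fold change 0.63, SE 0.28, edgeR adjusted p = 0.275). Neither gene overlapped between the groups, against 3.42% of all genes with every null tumor above every WT tumor. Tnks2, a tankyrase that marks angiomotins for degradation, and Usp9x, a deubiquitinase of angiomotins, had 0.65 and 0.61, while Patj had 0.49 (95% confidence interval -0.76 to 1.73).

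Genes that act on YAP, TAZ or TEAD after the cascade were tested for 16 of the 18 listed. Of these, 12 had positive and 4 negative log2 fold changes, against 47.8% positive over all genes. Their median was 0.19, and 0 passed edgeR's adjusted threshold. At an unadjusted p under 0.05, 3 counted as higher, against 7.64% of all genes, all with every null tumor above every WT tumor, against 3.42% of all genes. These were the casein kinases Csnk1d and Csnk1e, which take part in the degradation of YAP, and Ywhag, a 14-3-3 protein of the family that holds phosphorylated YAP in the cytoplasm. Csnk1d ranged from 210.1 to 253 CPM in null tumors and from 113 to 191 CPM in WT tumors, Csnk1e from 143 to 212 CPM in null tumors and from 69.6 to 125 CPM in WT tumors, and Ywhag from 377 to 520.2 CPM in null tumors and from 187 to 344 CPM in WT tumors. Their log2 fold changes were 0.57, 0.72 and 0.73 (edgeR adjusted p = 0.236, 0.221 and 0.221). Btrc, the F-box protein that takes phosphorylated YAP to the ubiquitin ligase, had 0.51 (adjusted p = 0.304). Vgll1, a TEAD cofactor, was listed at 0 in all 9 tumors, and Vgll2 was too low to test.

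The target genes of YAP and TAZ were split in direction, and none passed the test. Of 22 genes, a list that includes Amotl2 and Lats2, 12 had positive and 10 negative log2 fold changes, against 47.8% positive over all genes. Their median was 0.08, and 0 had an edgeR adjusted p under 0.05. At an unadjusted p under 0.05, 3 of the 22 counted as higher in null tumors and 1 as lower. Of all genes, 7.64% counted as higher and 10.0% as lower, 17.7% together. Ankrd1, a nuclear cofactor gene that is a standard readout of YAP, averaged 137 ± 98.8 CPM in null tumors (SD, n = 5) and 42.4 ± 23.6 CPM in WT tumors (SD, n = 4), with a log2 fold change of 1.69 (95% confidence interval 0.21 to 3.17, edgeR adjusted p = 0.247). Its null tumors ran from 23.6 to 259 CPM and so overlapped the WT tumors, at 18.0 to 69.4 CPM. Myof, a membrane repair gene, had 1.0 and Asap1, which encodes an Arf GTPase-activating protein, had 1.15 (edgeR adjusted p = 0.243 and 0.226).

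Ccn1 and Ccn2, which encode matricellular proteins and are the other standard readouts, had negative log2 fold changes that did not pass the test. Ccn1 averaged 109 ± 45.2 CPM in null tumors (SD, n = 5) and 124 ± 36.6 CPM in WT tumors (SD, n = 4), with a log2 fold change of -0.19 (95% confidence interval -0.88 to 0.50). Ccn2 averaged 420.1 ± 224 CPM in null tumors and 730.2 ± 416 CPM in WT tumors, with -0.80 (-1.84 to 0.24), and -0.32 without WT 2. With the non-epithelial level as a covariate both signs turned, to 0.13 for Ccn1 and 0.12 for Ccn2. Foxf2, a transcription factor gene of mesenchymal cells, had -2.48 (95% confidence interval -4.51 to -0.45, edgeR adjusted p = 0.233), at 0.353 to 1.56 CPM in null tumors and 0.385 to 12.7 CPM in WT tumors, and its log2 fold change was -0.84 without WT 2.

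**Figure D5:**
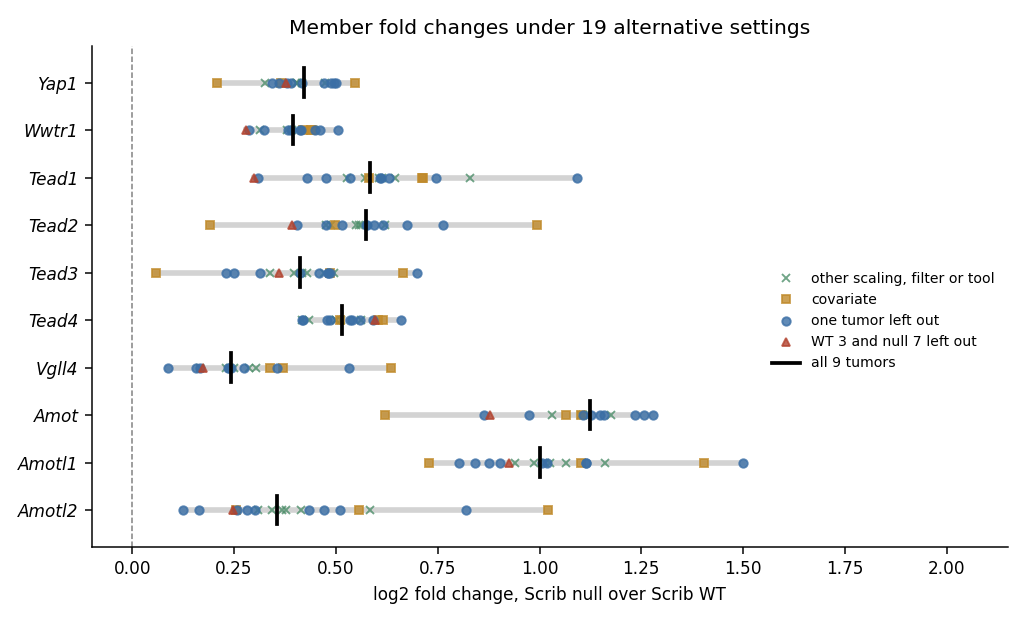
Log2 fold change (null over WT) of each of the 10 genes under the main fit and under 19 other settings of the analysis. All 190 alternative values lie above 0, and the widest spreads are those of Amotl2, from 0.12 to 1.02, and Tead2, from 0.19 to 0.99.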

How the data were processed

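Poly(A) RNA of 9 whole tumors was sequenced, and 1 deposited table gave an estimated count (expected count) per Ensembl gene and tumor. Salmon 1.4.0, DESeq 2, GRCm38 and mm10 are named per the submitters' processing notes. Annotation release, mapping settings and use of strand: not given in the sources used here. Totals differ between tumors, so the estimated counts were deposited without normalization. Salmon shares reads among similar transcripts.

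Symbols and coordinates came from GENCODE M21 on GRCm38, which matched 54200 of 54453 rows. Counts were rounded, and low genes were left out with filterByExpr (minimum count 10, minimum total 15), which left 16169. The test was edgeR 4.0.16 (R 4.3.3), quasi-likelihood, on TMM-scaled counts with no covariate and Benjamini-Hochberg adjustment over all genes (threshold 0.05). The SE was the log2 fold change over the square root of F. CPM used TMM-scaled totals, and log2 CPM a prior count of 2. Single values were compared by exact two-sided permutation over all 126 splits of the tumors, or over all splits of the tumors kept where some were left out. Levels of different genes were compared per kb of merged exons. Libraries of a group differed beyond sampling noise (the lowest chi-square of a pair over its degrees of freedom was 72.4).

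The 10 genes, the gene lists and the tests were chosen with earlier results of these data known. Besides the 10 genes and Scrib, the text names, per pathway list, the 4 genes with the smallest edgeR p, then Lats1, Lats2, Nf2, Ccn1, Ccn2, Ankrd1, Myof, Patj and Vgll1, and the 3 genes most correlated with Yap1, Wwtr1 and Amot, leaving out the 10 genes, Gm numbers, Rik clones and pseudogenes. Mpdz, Pals1 and Vgll2 are named as list members. Pals1 was matched as Mpp5. Alternatives were other scalings and filters, DESeq2 1.42.0, limma-voom (limma 3.58.1), covariates for sex and cell makeup, and left-out tumors. Correlations within groups and without 2 tumors, and a longer form of the promoter motif, were added after seeing the data. The fits were tested on simulated data.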

Additional observations from a re-analysis of the deposited data

Results flagged for a closer look

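In 38 groups of values (each gene's level, or its share of its family, within one genotype) the highest or lowest tumor was compared with its nearest neighbour by Dixon's ratio, and 3 groups had a tumor far from the others. Chance alone places a tumor that far in about 1 in 20 groups. Yap1 made up 50.11% of the coactivator level in WT 3, against 36.64% to 38.03% in the other WT tumors. The same tumor gives the second value, since Wwtr1 then made up 49.89% there, against 61.97% to 63.36% in the others. Tead3 made up 24.95% of the TEAD level in null 14, against 8.22% to 11.6% in the other null tumors, and null 14 was also the tumor with the lowest Tead2, at 61.8 CPM.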

How the results depend on the processing

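All 10 genes had a positive log2 fold change in 190 of 190 values over 19 alternatives, and 0 had an adjusted p under 0.05. The genes passing in the whole table, 0 higher and 2 lower, numbered 1 and 6 with no low-count filter, 212 and 413 with DESeq2, and 1 and 1 with limma-voom. Lower genes numbered 1 with a sex or an epithelial covariate, 0 with a non-epithelial covariate, 0 to 1 with a tumor left out and 0 without WT 3 and null 7. Of the YAP, TAZ and TEAD regulators, 1 passed with DESeq2 (Ywhag). The exact test gave an unadjusted p under 0.05 for 3 of the 10 genes with all tumors and for 0 without WT 3 and null 7. With a tumor left out it did so for 1 to 6 (6 without WT 2, and 1 without WT 3, WT 6, null 7 or null 18). The share of all genes with such an exact p was computed in none of these settings, so the counts are not a result about the 10 genes. Leaving out tumors also leaves fewer splits and a larger smallest possible p. Signs turned for Nf2 (main 0.04), at -0.021 with upper-quartile scaling, -0.11 with an epithelial covariate, -0.20 without WT 3 and null 7 and -0.15 to 0.45 with a tumor left out. They turned for Lats2 (main -0.08), at 0.13 with a sex and 0.90 with a non-epithelial covariate and -0.31 to 0.20 with a tumor left out. With a non-epithelial covariate Ccn1 had 0.13 and Ccn2 0.12, and with a tumor left out Ccn1 ran from -0.47 to 0.011 and Ccn2 from -1.10 to -0.32. Differences in family share (percentage points, null minus WT) also turned. Leaving out single tumors placed them at -1.93 to 2.89 for Yap1, -1.16 to 3.27 for Tead1, -3.75 to 4.97 for Tead2, -3.07 to 1.15 for Tead3, -1.51 to 0.919 for Tead4 and -1.88 to 4.80 for Amot. Without WT 3 and null 7 they were 1.61 for Yap1, -0.55 for Tead1, 0.369 for Tead3 and 1.45 for Tead4. The longer promoter motif, GGAATGT or GGAATGC, was in windows of 5 of 8 of the genes and of 2161 (8.01%) of all genes. No paired analysis was possible because the groups share no replicate number. The cause of these changes was not tested. With 9 tumors, the upper bounds of the 95% intervals of the 10 genes ran from 1.81-fold (Vgll4) to 3.66-fold (Amotl1).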
